A study of Homo sapiens with 4 samples.

Results

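Among 426 genes that the authors called as changed when OGT was lowered in MEG-01 cells, 40 protein-coding genes had very few reads in wild-type (WT) cells, and their values are described here. They were chosen as the listed protein-coding genes with a mean raw WT count under 150. Of 394 listed protein-coding genes, 71 met that threshold. Of these 71, 19 genes on chromosomes 6, 8, 10, X and Y were left out, as were 12 others by name, which left 40. Of the 12 left out by name, 9 are in the cell type marker lists used further on and 1 has a name that begins IFI or OAS, so the rule itself removed such genes. Both the WT counts and the authors' call on this contrast chose these genes, so every difference between the groups below is a description of the chosen genes and no test of them.

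MEG-01 cells are an established human line of megakaryoblasts, the precursors of megakaryocytes, and release particles that resemble platelets. All 4 libraries are of total RNA from this line, grown in RPMI1640 medium with fetal bovine serum. There were 2 libraries of WT genotype and 2 labelled as OGT depletion, which the series' design text describes as a CRISPR/Cas9 knockdown. The labels give no guide, no clone and no time after editing, do not say whether the WT cells received a control guide, and do not say that replicates were separate cultures, so a test here measures only how far the libraries lie apart, and that distance may be technical. OGT transfers O-linked N-acetylglucosamine to serines and threonines of nuclear and cytosolic proteins, among them transcription factors, RNA polymerase II and chromatin regulators. Its own transcript gave 16012 and 19190 normalized reads in the WT libraries, while the depleted ones gave 9124 and 12185, or 60.5% of the WT mean. The libraries held between 17643474 and 19883586 counted reads, of which the listed genes took 3.97% to 4.26%. Markers of the megakaryocyte lineage could not be used to check the cell type, because only genes called as changed are in the table.

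A gene with few reads in a bulk library can be a gene that every cell transcribes weakly or one that a small share of the cells transcribes strongly. In a bulk sample these cases cannot be told apart, and neither can fewer cells of a kind and less RNA per cell. Many of the 40 genes are known from other tissues, such as gut, epidermis, neurons or macrophages, and DNA methylation, repressive chromatin and missing transcription factors are the textbook means by which a lineage keeps such genes at a low level; none of these was measured here. Promoters rich in the dinucleotide CG are often shared by widely transcribed genes, while promoters poor in it are common among genes restricted to a tissue. The values are given in 2 scales. Normalized reads are raw counts divided by a size factor per library, and FPKM are reads per kilobase of transcript, scaled to the counted reads of the library, the scale on which genes of unequal length can be compared.

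The sequences just before the start sites of 5 of these genes are shown, as the promoters of the genes with some of the largest increases and of the only gene that was lower. They are the 150 bases upstream of the RefSeq start in GRCh38.p14, written 5′ to 3′ on the gene's strand, with each CG in capitals. The RefSeq start need not be that of the gene model whose reads were counted.
TMPRSS15 (chr21:18403786-18403935, minus strand): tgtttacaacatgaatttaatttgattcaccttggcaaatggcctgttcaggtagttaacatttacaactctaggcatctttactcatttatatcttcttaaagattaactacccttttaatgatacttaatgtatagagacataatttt
GPR128 (chr3:100609451-100609600, plus strand): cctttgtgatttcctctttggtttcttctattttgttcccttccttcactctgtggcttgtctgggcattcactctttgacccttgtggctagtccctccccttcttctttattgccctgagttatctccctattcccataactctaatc
TNFRSF19 (chr13:23570262-23570411, plus strand): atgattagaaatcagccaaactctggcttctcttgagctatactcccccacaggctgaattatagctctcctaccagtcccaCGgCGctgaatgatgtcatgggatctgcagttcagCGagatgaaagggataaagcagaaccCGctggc
ZNF595 (chr4:53171-53320, plus strand): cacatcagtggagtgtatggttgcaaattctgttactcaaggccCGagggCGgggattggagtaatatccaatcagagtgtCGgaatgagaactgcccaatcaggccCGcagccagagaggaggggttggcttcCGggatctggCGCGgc
FAM189A1 (chr15:29570980-29571129, minus strand): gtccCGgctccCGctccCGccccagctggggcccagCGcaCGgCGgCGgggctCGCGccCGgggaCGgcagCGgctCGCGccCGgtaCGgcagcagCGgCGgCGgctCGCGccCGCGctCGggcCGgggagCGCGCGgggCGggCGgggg
The stretch before TMPRSS15 and the stretch before GPR128 hold 0 CG, that before TNFRSF19 holds 4, that before ZNF595 holds 7 and that before FAM189A1 holds 30. Over the longer window from 250 bases before to 50 bases after the start, the ratio of observed to expected CG was 0 for TMPRSS15, 0.0661 for GPR128, 0.224 for TNFRSF19, 0.480 for ZNF595 and 1.04 for FAM189A1. Across 15843 protein-coding promoters of the same length the lower quartile, median and upper quartile of that ratio were 0.396, 0.763 and 0.913. The promoters of TMPRSS15, GPR128 and TNFRSF19 therefore lay below the lower quartile and that of FAM189A1 above the upper one. Promoters of some increased genes that are not printed also lay above the upper quartile. Their ratios were 0.951 for NDN, 1.04 for ZNF229, 1.06 for CHST8, 1.07 for AMZ2 and 1.21 for IRS2. The 5 printed promoters therefore do not stand for the set, and a link of the ratio to direction was not tested. Of 7 motifs searched on both strands, none was tested for a link to the set. Motifs that are not described here occur in the windows of TMPRSS15, ZNF595 and FAM189A1. Only AGATAA, the core that GATA factors of the megakaryocyte and red cell lineages bind, is described. It occurs once in the GPR128 window, on the minus strand 28 bases before the start, once in the TNFRSF19 window, on the plus strand 191 bases before it, in none of the other 3 printed promoters, and in 7.57% of all protein-coding promoters. Among the other matched members it occurs in KRT10. A promoter was matched for 30 of the 40 genes (75%), below the 80% needed, so a comparison of promoter properties over the whole set is void and none is given.

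After OGT depletion 39 of the 40 genes were higher and 1, FAM189A1, was lower. The authors had listed 3.24% of the 13154 genes they tested, and 1.89% as higher. In a refit of the counts with edgeR's quasi-likelihood test, 38 of the 40 were called higher, where 50.2% of all listed genes were, and 1 was called lower, where 31.9% were. The WT threshold and the authors' call together favour large increases, so this direction was largely set by the choice of genes. Of the 31 low listed protein-coding genes outside the set, 30 were called higher and 1 lower. MS4A4E was the exception, at an adjusted p of 0.0515 in that edgeR refit. In 36 of the 40 the fitted increase was at least 2-fold, against 25.6% of all listed genes. The median log2 fold change was 1.24, a factor of 2.37, beside 0.56 over all listed genes and 0.50 over the 354 other listed protein-coding genes, and the 39 increases ran from 0.88 to 1.86. In each of the 40 genes both depleted libraries lay on the same side of both WT libraries, as in 100% of the listed genes, and the gap between the nearest libraries of the groups was 1.45-fold to 3.46-fold. The 40 genes together gave 3153 and 3153 reads in WT and 7949 and 7632 after depletion, or, scaled to the library totals, 173 and 179 CPM in WT and 399.8 and 405 CPM in the depleted libraries.

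The direction held more widely than the calls. Without WT replicate 1 the edgeR refit called 7 members higher (ABCA8, AMZ2, GPR128, GSTP1, MS4A4A, NDN and TNFRSF19), where 15.3% of all listed genes were called higher, and without WT replicate 2 it called only GPR128, where 7.51% were. Size factors computed by DESeq2 over the listed genes alone left 21 called higher with a median log2 fold change of 0.75, where 18.1% of all listed genes were called higher and their median was 0.07. With the replicate number fitted as a block, edgeR called 0 of the 40 members and 0% of all listed genes higher, and the labels give no shared origin for equal numbers. All 39 stayed higher and FAM189A1 stayed lower under every scaling, test, block and left-out library that was tried.

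**Figure D1:**
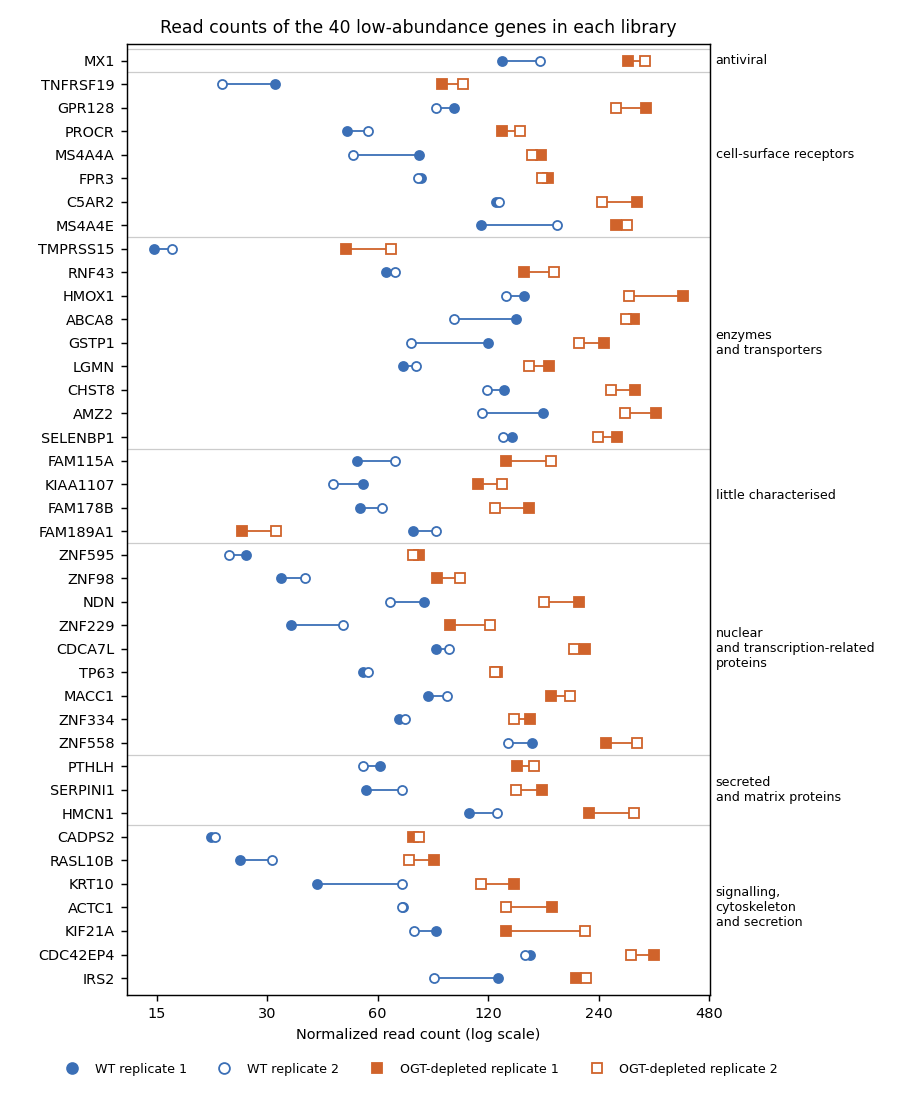
Normalized read count (horizontal axis, log scale) of each of the 40 genes in each library, grouped by what the gene encodes; blue circles are WT replicates, orange squares OGT-depleted replicates, and a line joins the replicates of a group. The groups do not overlap in any gene, and FAM189A1 is the 1 gene whose orange squares lie to the left.

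The description "nearly silent in wild type" held for fewer than all of these genes once length was taken into account. Mean WT FPKM ran from 0.189 for CADPS2 to 7.19 for MS4A4E, with a median of 1.27, beside a median of 11.7 over all listed genes. In 17 of the 40 the WT mean was under 1 FPKM, and in 13 it was at least 2 FPKM. After depletion the median was 3.03 FPKM, and 4 genes were under 1 FPKM: CADPS2, TMPRSS15, HMCN1 and FAM189A1. Crossing of 1 FPKM from below was seen in 13 genes. It was not particular to the set: of all listed genes 31 were under 1 FPKM in WT and 26 crossed it. Among the low protein-coding genes outside the set, 11 were under 1 FPKM in WT and 10 crossed it. The short MS4A4E transcript (1125 bases) and the very long HMCN1 transcript (18208 bases) show how counts and levels per length rank the genes differently: their WT normalized reads were 115 and 185 for MS4A4E and 106 and 127 for HMCN1, but their FPKM were 5.30 and 9.07 and 0.304 and 0.383.

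**Figure D2:**
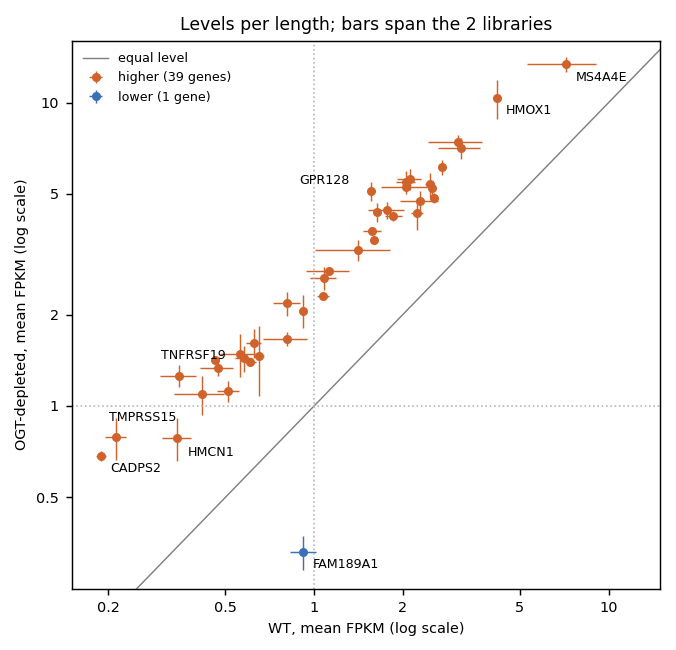
Mean FPKM after OGT depletion (vertical axis) against mean WT FPKM (horizontal axis), both on log scales, for the 40 genes; bars span the 2 libraries of a group, the grey line marks equal levels and dotted lines mark 1 FPKM. Every gene but FAM189A1 lies above the grey line, and 13 genes lie left of 1 FPKM in WT and above it after depletion.

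The cell-surface receptors and membrane proteins numbered 7, all higher, with a median log2 fold change of 1.33. TNFRSF19 (chr13:24144509-24250232 in hg19, as for all gene positions that follow) encodes TROY, a member of the tumour necrosis factor receptor family known from neural and hair follicle development. It gave 31.6 and 22.7 normalized reads in the WT libraries and 89.99 and 103 in the depleted ones, which is 3.55-fold higher (log2 fold change 1.82 ± 0.23, SE, 2 libraries a group). The lower depleted library held 2.85 times the reads of the higher WT library. GPR128 (chr3:100328433-100414323), also named ADGRG7, is an adhesion G-protein-coupled receptor known from the intestine. Its reads were 96.9 and 86.5 in the WT libraries and 323 and 268 in the depleted ones, 3.23-fold higher (1.69 ± 0.18). It combined a large increase with more reads than the other genes of similar fold change, and it is the only 1 of the 40 called with either WT library left out.

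PROCR (chr20:33759876-33765165) encodes the endothelial protein C receptor, which presents protein C for activation on endothelium and marks some blood stem cells. Its FPKM were 1.91 and 2.31 in the WT libraries and 5.15 and 6.02 in the depleted ones, with normalized reads of 49.5 and 56.6 against 131 and 147 (2.61-fold, log2 fold change 1.38 ± 0.19). No WT library came within 2-fold of a depleted one. FPR3 and C5AR2 are leukocyte receptors, the first for formyl and other peptides and the second for the complement fragment C5a. FPR3 had 79.0 and 77.2 normalized reads in WT against 174 and 168 after depletion (1.13 ± 0.18). C5AR2 stood at 126 and 129 in WT and at 306 and 244 after depletion (1.11 ± 0.18). The depleted libraries of C5AR2 differed from each other by 1.25-fold, a smaller factor than that between the groups.

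MS4A4A (chr11:60048014-60076445) and MS4A4E (chr11:59968726-60010561) encode 4-pass membrane proteins of the MS4A family, of which MS4A4A is known from macrophages and mast cells. MS4A4A had 77.9 and 51.5 normalized reads in WT and 168 and 158 after depletion (1.33 ± 0.21). MS4A4E had the highest FPKM of the 40 genes, 5.30 and 9.07 in WT and 12.7 and 14.1 after depletion. Its WT libraries lay apart by 1.62-fold, and its log2 fold change of 0.88 ± 0.21 was the smallest of the 39 increases. MS4A4A and MS4A4E are neighbours, 37453 bases apart, and are close paralogs, so how reads were split between them is uncertain. Another pair of listed genes of the same cluster went in opposite directions, MS4A6A with a log2 fold change of 0.72 and MS4A3 with -0.84.

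The secreted and matrix proteins were PTHLH, SERPINI1 and HMCN1, all higher, with a median log2 fold change of 1.30. PTHLH encodes parathyroid hormone-related protein, a local regulator of cartilage, mammary gland and placental calcium transport. Its normalized reads were 61.1 and 54.6 in the WT libraries and 144 and 160.1 in the depleted ones, 2.63-fold higher (1.39 ± 0.19), so that each depleted library held more than 2 times the reads of either WT library. SERPINI1 is neuroserpin, an inhibitor of tissue plasminogen activator in neurons, at 55.8 and 70.03 against 169 and 143 (1.30 ± 0.20). HMCN1 is hemicentin 1, a very large extracellular matrix protein. Although it had 106 and 127 normalized reads in WT and 225 and 299 after depletion (1.17 ± 0.19), its level per length stayed under 1 FPKM in all 4 libraries, with 0.304 and 0.383 in WT and 0.657 and 0.909 in the depleted cells.

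The enzymes and transporters numbered 9, all higher, with a median log2 fold change of 1.25. TMPRSS15 (chr21:19641433-19858197) encodes enteropeptidase, the duodenal protease that activates trypsinogen, and it had the fewest WT reads of all 40 genes. It gave 14.7 and 16.5 normalized reads in WT and 49.3 and 65.2 after depletion, a 3.67-fold increase (log2 fold change 1.86 ± 0.27) that was the largest of the set. The 95% counting interval of that ratio, which covers counting error only, was 2.44 to 5.66-fold, and its level after depletion was still 0.663 and 0.914 FPKM. The increase was large in proportion and small in level.

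HMOX1 (chr22:35776354-35790207) encodes heme oxygenase 1, which degrades heme and is induced by oxidative stress, and GSTP1 encodes a glutathione transferase that conjugates electrophiles. HMOX1 had 4.30 and 4.04 FPKM in WT and 11.9 and 8.82 after depletion, with normalized reads of 151 and 134 against 408 and 290.4 (1.30 ± 0.20). GSTP1 had 120.03 and 74.2 normalized reads in WT and 248 and 212 after depletion (1.25 ± 0.22). In both genes the lower depleted library stayed above the higher WT library by at least 1.76-fold, while the WT libraries of GSTP1 differed from each other by 1.62-fold. SELENBP1, a selenium-binding protein that oxidises methanethiol, had one of the smaller increases, from 139 and 132 to 269.98 and 239.6 normalized reads (0.91 ± 0.17).

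CHST8 is a sulfotransferase that acts on the sugars of glycoproteins such as pituitary hormones. It had 133 and 119 normalized reads in WT and 301 and 259 after depletion (1.15 ± 0.17). AMZ2 is a zinc metallopeptidase, with 169.5 and 115 in WT and 345 and 284 after depletion (1.14 ± 0.20). LGMN is the lysosomal protease legumain, with 70.5 and 76.2 against 175 and 155 (1.17 ± 0.18). The ranges of the groups were separate in all 3, most widely for LGMN. RNF43 is a membrane ubiquitin ligase that removes the receptors of a growth factor pathway from the surface, and ABCA8 is a lipid transporter. RNF43 had 63.2 and 66.9 normalized reads in WT and 151 and 181 after depletion (1.35 ± 0.19), and ABCA8 had 143 and 96.8 against 300.3 and 285 (1.29 ± 0.20). RNF43 shares exon sequence on the same strand with SUPT4H1 in GENCODE release 29, so some of its reads may belong to that gene.

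The nuclear and transcription-related proteins numbered 9, all higher, with a median log2 fold change of 1.24, and 5 of them are zinc finger proteins. ZNF595 (chr4:53179-88099) had 26.3 and 23.7 normalized reads in WT and 77.7 and 74.8 after depletion, 3.05-fold higher (1.60 ± 0.22). ZNF98 had 32.6 and 38.1 against 87.2 and 101 (1.40 ± 0.21), and ZNF229 34.7 and 48.4 against 94.7 and 122 (1.38 ± 0.23). These 3 genes were under 1 FPKM in WT and over it after depletion, for ZNF595 from 0.459 to 1.42, for ZNF98 from 0.811 to 2.18 and for ZNF229 from 0.415 to 1.09 FPKM. ZNF334 and ZNF558 had smaller increases, with log2 fold changes of 1.09 ± 0.18 and 0.92 ± 0.18. Genes whose symbol begins ZNF numbered 12 in the whole table, 7 higher and 5 lower. The 7 outside the set had mean WT counts of 217 to 4776.5 raw reads, and of these ZNF528 and ZNF696 were higher and ZNF93, ZNF141, ZNF175, ZNF692 and ZNF738 lower. Zinc finger genes of this kind are near-copies of each other, so their read counts are uncertain where reads match more than one.

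NDN (chr15:23930565-23932450) encodes necdin, an imprinted growth suppressor of neurons expressed from the paternal copy. It had 80.02 and 64.9 normalized reads in WT and 212 and 171 after depletion, 2.64-fold higher (1.40 ± 0.20). TP63 (chr3:189349205-189615068) is a p53-family transcription factor that maintains the basal layer of stratified epithelia, and its libraries were among the closest within each group. It had 54.8 and 56.6 normalized reads in WT and 127 and 126 after depletion (1.18 ± 0.19), or a mean of 0.607 FPKM against 1.39. CDCA7L, a partner of MYC, had 86.3 and 93.7 normalized reads against 221 and 205 (1.24 ± 0.17). MACC1, a regulator of the MET receptor gene, had 82.1 and 92.7 against 178 and 200.3 (1.11 ± 0.18). In each of these 4 genes the depleted libraries held at least 1.9 times the reads of the nearest WT library.

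The proteins of signalling, cytoskeleton and secretion numbered 7, all higher, with a median log2 fold change of 1.15. CADPS2 (chr7:121958481-122526813), which primes dense-core vesicles for release in neurons and endocrine cells, had the lowest WT level of the set, 0.181 and 0.197 FPKM. Its normalized reads were 21.1 and 21.6 in the WT libraries and 74.8 and 77.6 in the depleted ones, 3.57-fold higher (1.83 ± 0.23). It had the widest gap of the 40 genes between the nearest libraries of the groups, 3.46-fold. RASL10B, a small RAS-like GTPase, had 25.3 and 30.9 normalized reads in WT and 85.3 and 72.8 after depletion, 2.81-fold higher (1.49 ± 0.23). CDC42EP4, an effector of the GTPase CDC42, had 156 and 151 against 340.1 and 294 (1.05 ± 0.16). IRS2 carries signals from the insulin receptor, and its reads were 127 and 85.5 against 208 and 221 (1.01 ± 0.20). The WT libraries of IRS2 differed from each other by 1.49-fold, those of CDC42EP4 by 1.03-fold.

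KRT10, a keratin of the upper epidermis, and KIF21A, a kinesin motor, had the widest replicate spread. KRT10 had 41.1 and 70.03 normalized reads in WT, apart by 1.71-fold, and 141 and 115 after depletion (1.20 ± 0.24). KIF21A had 86.3 and 75.2 in WT and 135 and 220.4 after depletion, apart by 1.64-fold (1.13 ± 0.24). Its log2 fold change was 0.74 without OGT-depleted replicate 2. Both KRT10 and KIF21A lost their calls with TMM or DESeq2 size factors over the listed genes and, like every member, with the replicate block. ACTC1 encodes cardiac actin and was the only 1 of 52 muscle and contractile markers in the table. It had 70.5 and 70.03 normalized reads in WT and 179 and 134 after depletion (1.15 ± 0.20). KRT10 shares exon sequence on the opposite strand with TMEM99 and CDCA7L with DNAH11, and whether reads were counted by strand is unknown from the labels and headers.

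MX1 (chr21:42792231-42831141), an interferon-induced GTPase that blocks influenza and other viruses, is known mainly for antiviral defence. The rule left out genes named IFI or OAS, which hold many others of that kind. MX1 had 131 and 166 normalized reads in WT and 288 and 320.1 after depletion, 2.05-fold higher (1.04 ± 0.18). In a list of 48 interferon-response genes outside those names, 5 were in the table, and all 5 were called higher in the refit, where 50.2% of listed genes were. ACTC1 and MX1 were the only members found in any of 12 marker lists of cell types and states. The other 10 lists, which cover megakaryocyte, erythroid, mast cell, lymphoid, myeloid, endothelial, neuronal, epithelial, matrix and germline genes, held none of the 40, after the rule had left out 9 of their low genes by name and 2 by chromosome. These lists do not hold every gene of a tissue. KRT10, TP63, PROCR, SERPINI1, FPR3 and MS4A4A, described above by such tissues, are in none of them. Absence from the lists therefore does not show that the set lacks genes of those tissues.

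FAM189A1 (chr15:29412457-29862927), also named ENTREP2 and little characterised, was the only gene lower after depletion. It had 74.8 and 86.5 normalized reads in WT and 25.6 and 31.6 in the depleted libraries, 35.5% of the WT mean (log2 fold change -1.49 ± 0.22). In FPKM it went from 0.826 and 1.01 to 0.289 and 0.372, the lowest level after depletion of the 40 genes. The highest depleted library lay 2.36-fold under the lowest WT library. The other little characterised genes were higher. FAM115A, also named TCAF1 and known as a partner of the cold-sensing TRPM8 channel, had 52.6 and 66.9 normalized reads in WT and 135 and 178 after depletion (1.38 ± 0.22). FAM178B had 53.7 and 61.8 against 155 and 126 (1.28 ± 0.20), and KIAA1107 had 54.8 and 45.3 against 113 and 131 (1.28 ± 0.20).

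The spread between replicates was set against counting noise, which at these read numbers hides all but large differences. A chi-square of the 2 replicates' counts passed 3.84, its 95% bound, in 8 of the 40 genes in WT and in 10 after depletion, compared with 172 and 183 of the 354 other listed protein-coding genes, which have more reads and so show smaller differences by this measure. The median factor between replicates was 1.15 in WT and 1.16 after depletion. WT replicate 1 was the higher of its pair in 19 genes and OGT-depleted replicate 1 in 22, so neither library was higher throughout. The standard errors of the log2 fold changes had a median of 0.20, beside 0.14 over all listed genes. That width was not particular to the set, since the 31 low protein-coding genes outside it had a median of 0.19. Reads per gene were few: raw counts ran from 14 to 180 in WT and from 27 to 431 after depletion.

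In the authors' deposited table the log2 fold changes of these genes are smaller than in the refit. Relative to the log2 ratio of the authors' group means, the deposited value was 0.633 at the median, from 0.367 for TMPRSS15 to 0.756 for CDC42EP4, against 0.855 over all listed genes. The 31 low protein-coding genes outside the set also had a median of 0.633, from 0.330 to 0.765, so this was not particular to the set. TMPRSS15, with the largest refitted increase, ranked 34 of 39 in the authors' deposited table, at 0.69, while GPR128 ranked 1, at 1.21, and HMOX1 ranked 2, at 0.95. Across the 39 increased genes, the refitted log2 fold change was larger where WT reads were fewer (Spearman's rho -0.76 across genes), whereas the deposited one was not (0.08). Both axes of these correlations use the same 2 WT libraries, and genes are not independent replicates. At few reads only large changes pass the authors' call, so the choice of genes also favours a negative value for the refit. The correlations therefore only describe how the 2 estimates order the genes (0.44 between them).

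**Figure D3:**
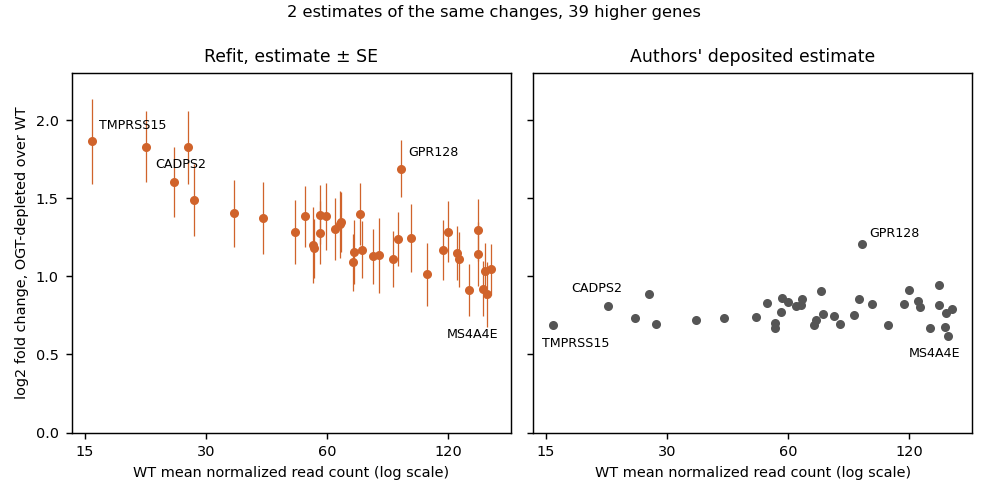
Log2 fold change of the 39 higher genes (vertical axis) against mean WT normalized read count (horizontal axis, log scale), from the refit with its standard error (left) and as deposited by the authors (right). The refitted values fall from 1.86 for TMPRSS15 to 0.88 for MS4A4E, while apart from GPR128, at 1.21, the deposited values stay between 0.62 and 0.95.

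The 40 genes were spread over 15 chromosomes, with 6 each on chromosomes 17 and 19 and 4 on chromosome 7. Within 1 Mb, 27 of them had no other listed gene and 13 had at least one. Of the 24 pairs so formed, 14 went in the same direction and 10 in opposite directions. Over all 426 listed genes 248 were higher and 178 lower, a share close to that of the pairs. ABCA8 and AMZ2, 610136 bases apart on chromosome 17, were the only other pair of members. ZNF595 was higher and its neighbour ZNF141, 243504 bases away, was lower at -0.69. Transcript lengths had a median of 3172.5 bases, beside 3737 for the other listed protein-coding genes.

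Genes just inside and just outside the threshold had overlapping values. Inside it, CDC42EP4 had 148 and 147 raw reads in WT and 359 and 307 after depletion. MS4A4E had 109 and 180 raw reads in WT and 283 and 299 after depletion, and MX1 had 124 and 161 raw reads in WT and 304 and 334 after depletion. Outside it, GABARAPL1, an autophagy protein, had 165 and 137 raw reads in WT and 332 and 391 after depletion. MUC15, a membrane mucin, had 167 and 152 raw reads in WT and 401 and 429 after depletion. MYO16, an unconventional myosin of neurons, had 153 and 184 raw reads in WT and 405 and 447 after depletion. Log2 fold changes of GABARAPL1, MUC15 and MYO16 were 1.13, 1.25 and 1.21, within the range of the members. The rule left out 31 low listed protein-coding genes by chromosome or name. The 19 left out by chromosome were all higher, with a median log2 fold change of 1.21. Of the 12 left out by name, 11 were higher and 1 lower, with a median of 1.72 and a range from -1.10 to 3.38. The median of the 40 was 1.24.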

How the data were processed

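RNA of 2 WT and 2 OGT-depleted MEG-01 libraries was compared. CASAVA 1.8, STAR 2.5, TopHat, DESeq2 and hg19 are named, without roles, in the submitters' processing notes. The sources used here do not name the read counter, annotation or strand setting. The authors deposited raw read counts per gene, FPKM per library, group means as a normalized signal (counts divided by a size factor per library), shrunken log2 fold changes, and p-values with adjusted p-values, per the file headers and the values. The table holds only genes with an adjusted p-value under 0.05 by the authors. The treated columns are headed OGTi, not CR_OGT as in the titles. They were matched by number, because the deposited CR_OGT means are made from exactly those columns. If OGTi meant another treatment, every comparison would be of that treatment.

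Size factors solved from the deposited means were 0.950 and 0.971 (WT) and 1.06 and 1.04 (OGT-depleted), and counted reads per library, from the FPKM, were 18265260, 17643474, 19883586 and 18849449. All 426 listed genes were refitted with edgeR 4.0.16 (glmQLFit, glmQLFTest) in R 4.3.3 with those factors. Benjamini-Hochberg adjustment ran over the 13154 genes the authors tested, with calls at an adjusted p under 0.05, and the scripts were tested on simulated data. Dispersions came from genes selected as changed. Alternatives were other scalings, DESeq2 1.42.0's Wald test, filterByExpr, a replicate block, each library left out, and WT thresholds of 100 and 200. A median that moved by less than 0.06 was counted as unchanged.

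Gene positions are hg19 from the authors' table. Promoter sequences and their positions are RefSeq's on GRCh38.p14, matched by current symbol, and exon overlaps are from GENCODE release 29. The members, lists and roles were chosen with earlier results of these data known. Values per library are given for the 12 largest changes, the 6 lowest WT and 6 highest depleted FPKM, each lower member, marker-list members and the 3 genes on each side of the threshold. Other members were named after their values were seen.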

Additional observations from a re-analysis of the deposited data

How the results depend on the processing

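The count of genes called higher (38 with edgeR) was 38 with library totals and with filterByExpr, 33 with TMM over the listed genes, 39 with DESeq2's Wald test and 21 with DESeq2 size factors over the listed genes, and it ranged from 1 to 39 when each library was left out. Over all listed genes the share called higher was 50.2%, then 54.7% with library totals, 50.2% with filterByExpr, 31.7% with TMM, 57.5% with the Wald test and 18.1% with DESeq2 size factors, and 7.51% to 52.3% with each library left out. TMM and the DESeq2 size factors, which assume that most of the called genes are unchanged, shifted the median of all listed genes by -0.21 and -0.49. The median log2 fold change of the members (1.24) was 1.03 and 0.75 under these, and 1.18 to 1.27 with each library left out. Members under 100 raw WT reads had a median of 1.32, and 27 of 28 were called higher. Under 200 reads 46 of 49 were called higher and 2 lower. The 1 lower call ranged from 0 to 1 when each library was left out. With a library left out, its group has 1 library, which is assumed to vary like the other group. With the replicate number as a block, edgeR called 0 members higher and 0 lower, and 0% of all listed genes higher, although all 40 had an unadjusted p under 0.05 and the median log2 fold change was 1.25. DESeq2 was not run with the block. The labels give no shared origin for equal numbers, and same-numbered deviations correlated at 0.50 over all listed genes and 0.16 over the members, with 2 pairs only. None of the 40 members changed direction under any alternative fit. In WT the members had between 14 and 180 raw reads per library, which limits the precision of each fold change.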
